A study of Mus musculus with 9 samples.

Results

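Cholesterol synthesis was followed through 8 genes picked by name from the gene count table of this series: Hmgcs1, Fdps, Idi1, Sqle, Lss, Cyp51, Dhcr7 and Insig1. All 8 were found among the 54456 genes of the table, and all 8 had enough counts to be among the 26081 genes tested. The counts come from polyadenylated RNA of mouse skin with lesions that the labels call AA-like, in a study whose title names alopecia, the loss of hair. Each of the 3 groups had 3 libraries: lesions left untreated, lesions given microneedles without a drug load (the empty device), and lesions given the same kind of device with IL-2 and CCL22 in it (the loaded device). Microneedles pierce the outer skin to release a drug there, IL-2 makes T cells grow and CCL22 draws cells that bear CCR4. The sources used here do not give strain, age, genotype, the time of sampling or how the lesions were raised. Nor do they tie the libraries to separate animals, and p-values therefore measure only how far these libraries spread, which may be technical.

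Cells build cholesterol from acetyl-CoA. HMG-CoA synthase (Hmgcs1) acts on the way to mevalonate, which is turned into isoprenoid units and joined by Idi1 and Fdps into farnesyl diphosphate. Squalene epoxidase (Sqle) and lanosterol synthase (Lss) make the first sterol, and Cyp51 and later enzymes trim it, with Dhcr7 at the end of the route to cholesterol. Transcription of these genes is driven by SREBP-2, the product of Srebf2, which its escort Scap carries out of the endoplasmic reticulum when sterols are low. Insig1 holds Scap back when sterols are high and is itself a target of SREBP. In skin, cholesterol goes into the barrier lipids of the cornified layer and into sebum.

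The promoters of these genes were searched for short sequences. RefSeq start sites (build GRCm38.p6) were matched by symbol for 6 of the 8 genes, and the 250 bases before each start were searched on both strands for TCACNCCAC (a form of the sterol response element that SREBP binds), CCAAT (the box of NF-Y) and GGGCGG (the box of Sp1), each counted on its own where matches overlapped at their ends. These 6 genes have 8 promoters, since Dhcr7 has 3 starts. The CCAAT letters lay in 6 of the 8 promoters, where 33.8% of all 32851 promoters of the table hold them. The GGGCGG letters lay in 7 of the 8, against 32.7% of all promoters. Of the 8, the Hmgcs1 promoter alone held TCACNCCAC, against 1.05% of all promoters. Among 13 promoters of 12 other sterol enzymes, 10 held CCAAT, 11 held GGGCGG and none held TCACNCCAC. No match says only that these letters are not in this window. The shares over all promoters were not matched for base content or expression, so nothing particular to these genes is read from CCAAT or GGGCGG. Of the 8 genes, Dhcr7 and Insig1 differed most between the devices and in opposite directions, so their promoters are shown beside that of Hmgcs1, each on the plus strand, with the matched letters in capitals. They lie at chr13:119690101-119690350 (Hmgcs1), chr7:143829964-143830213 (Dhcr7, the only one of its 3 annotated starts with CCAAT) and chr5:28071162-28071411 (Insig1). Another Dhcr7 start held none of the searched letters, and which start is in use in these samples was not tested.
Hmgcs1: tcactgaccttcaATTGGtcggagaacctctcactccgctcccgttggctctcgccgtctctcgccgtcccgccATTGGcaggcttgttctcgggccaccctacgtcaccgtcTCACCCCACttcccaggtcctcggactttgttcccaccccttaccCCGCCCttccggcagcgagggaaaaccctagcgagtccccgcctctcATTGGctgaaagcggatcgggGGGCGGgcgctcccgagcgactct
Dhcr7: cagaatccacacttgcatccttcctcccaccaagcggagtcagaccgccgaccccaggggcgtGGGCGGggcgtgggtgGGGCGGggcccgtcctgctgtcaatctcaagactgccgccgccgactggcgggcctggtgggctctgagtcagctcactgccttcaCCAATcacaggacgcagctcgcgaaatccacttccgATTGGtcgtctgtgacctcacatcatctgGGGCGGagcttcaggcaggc
Insig1: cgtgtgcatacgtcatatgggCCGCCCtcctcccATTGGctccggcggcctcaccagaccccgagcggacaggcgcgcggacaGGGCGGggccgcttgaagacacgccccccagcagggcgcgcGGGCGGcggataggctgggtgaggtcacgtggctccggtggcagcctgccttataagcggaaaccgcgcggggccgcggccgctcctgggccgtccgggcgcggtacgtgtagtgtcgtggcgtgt

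Total counts lay between 85962714 and 96740589 per library. Each level is a CPM value, the count scaled with TMM factors to libraries of a common size, and each difference is a log2 fold change with its standard error (SE). A gene is called when its adjusted p (edgeR's quasi-likelihood test, Benjamini-Hochberg over all tested genes) is under 0.05. Of all tested genes, 42.3% were called between the loaded device and untreated skin, 41.4% between the loaded and the empty device and 48.3% between the empty device and untreated skin. Among tested genes no lower in mean level than the lowest of the 8 (11.6 CPM), these shares were 69.9%, 66.4% and 76.3%. Of all calls, 44.9%, 55.3% and 41.7% were higher. Scaling by library size alone made these 68.1%, 61.3% and 57.9%, and upper-quartile scaling made them 48.9%, 44.4% and 53.0%. Library size alone also raised the median log2 fold change of all genes by 0.13 between the loaded device and untreated skin and by 0.10 between the empty device and untreated skin. As a check of the labelled tissue, 12 keratinocyte markers were all detected and summed to 31600 to 53500 CPM, and 12 skeletal muscle markers, also all detected, summed to 9310 to 15100 CPM. In such bulk samples fewer cells of a type and less RNA per cell cannot be told apart.

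The 8 genes did not move as a block. With the empty device, 1 of the 8 was called higher than in untreated skin (Dhcr7) and 4 lower (Hmgcs1, Idi1, Cyp51 and Insig1). With the loaded device, 2 were called higher than in untreated skin (Lss and Insig1) and 4 lower (Hmgcs1, Idi1, Sqle and Cyp51). Between the devices, 3 were higher with the loaded one (Idi1, Lss and Insig1) and 2 lower (Sqle and Dhcr7). These counts, 5, 6 and 5 of 8, stand near the shares called among genes no lower in mean level than the lowest of the 8. That floor is set by Fdps alone, and the rest of the 8 stood well above it. In each of the 3 comparisons 6 of the 8 had groups that did not overlap, where 54.6% (empty device against untreated skin), 52.7% (loaded device against untreated skin) and 50.8% (between the devices) of all tested genes did so. Shares without overlap were not taken among genes at the level of the 8, so no excess is read from these counts. The comparisons share libraries, so their counts are not independent of each other. The median log2 fold change of the 8 was -0.06 for the empty device and -0.05 for the loaded device, each against untreated skin, and 0.01 between the devices, beside -0.016, -0.014 and 0.015 over all tested genes. Scaled by library size alone, the split against untreated skin was 4 higher and 3 lower for the empty device and 4 higher and 2 lower for the loaded device. Under upper-quartile scaling it was 3 higher and 4 lower for the empty device, and 2 higher and 3 lower between the devices.

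**Figure D1:**
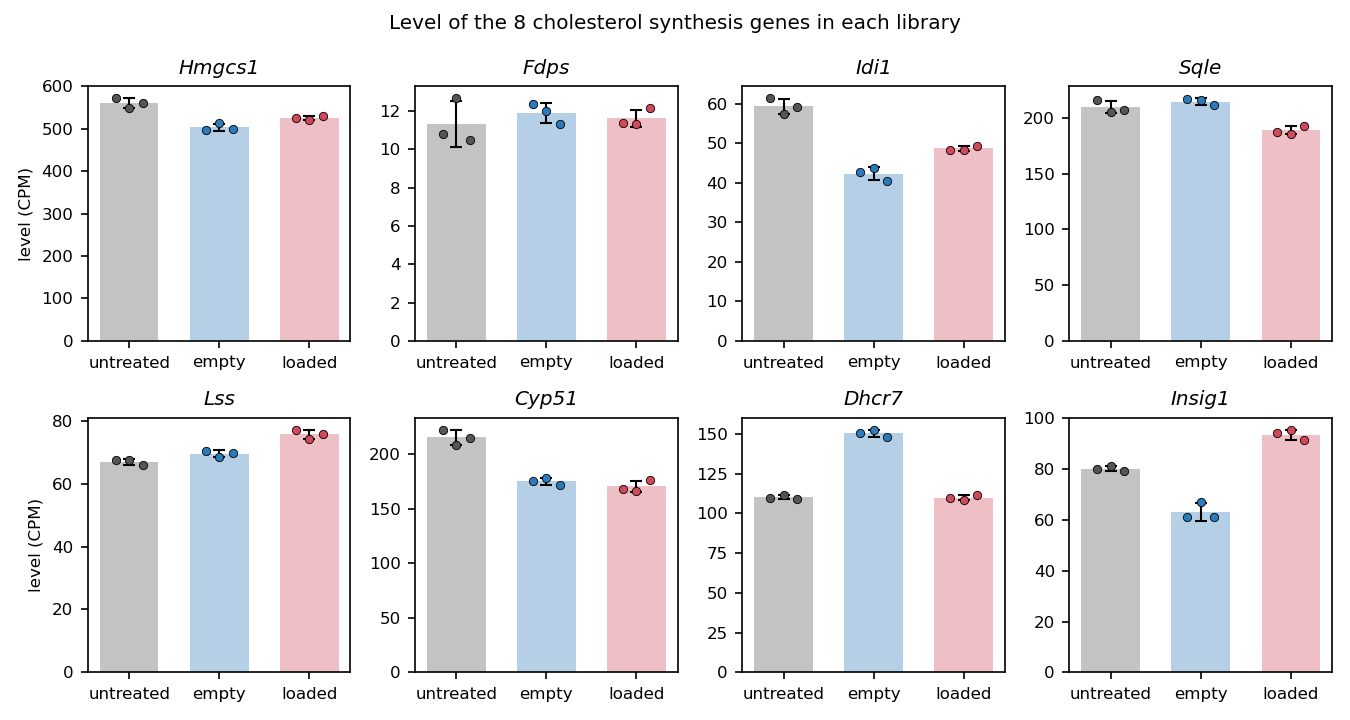
Level of each of the 8 genes in every library (points, CPM after scaling, vertical axis from 0), with the group mean (bar) and SD (error bar) over 3 libraries of untreated skin, the empty device and the loaded device. Dhcr7 stood at 148 to 153 CPM with the empty device and at 108 to 112 CPM elsewhere, while Insig1 stood lowest with the empty device.

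Of the early enzymes, Hmgcs1 differed little. The gene (chr13:120151915-120169796, plus strand, mm39 as in all gene positions here) stood at 572, 547 and 559.7 CPM in untreated skin, at 497, 513 and 500 CPM with the empty device and at 525, 520 and 529 CPM with the loaded device. The untreated libraries were the highest, and none of the 3 groups overlapped. The log2 fold change was -0.15 (SE 0.032, edgeR adjusted p = 0.000213) for the empty device and -0.09 (SE 0.032, edgeR adjusted p = 0.0198) for the loaded device, each against untreated skin. Between the devices it was 0.06 (SE 0.032, edgeR adjusted p = 0.146), which did not pass. With library size alone the empty-device value was -0.05 (edgeR adjusted p = 0.198, range over 20 alternatives 4.06e-05 to 1) and lost its call, while the difference between the devices was 0.09 and was called (edgeR adjusted p = 0.0217, range 0.0217 to 1). The call for the loaded device was lost with DESeq2 size factors, with upper-quartile scaling, without a filter, in a test against a 1.2-fold change and on leaving out loaded-device library 1 (-0.09) or 2 (-0.09), and the direction turned to 0.04 with library size alone. Over 20 alternatives its adjusted p ran from 0.0057 to 1, and the highest value came from the test against a 1.2-fold change. Hmgcs1 shares 6190 of its 17882 bases with Gm48342 on the other strand, which had 24 to 51 counts.

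Idi1, which interconverts the isoprenoid units, fell with both devices. The gene (chr13:8935537-8942487, plus strand) stood at 61.4, 57.5 and 59.2 CPM in untreated skin, at 42.8, 43.7 and 40.5 CPM with the empty device and at 48.3, 48.4 and 49.4 CPM with the loaded device. The 3 groups did not overlap, and the empty device was the lowest. Against untreated skin Idi1 changed by -0.49 with the empty device (SE 0.036, edgeR adjusted p = 3.3e-12) and by -0.29 with the loaded device (SE 0.036, edgeR adjusted p = 1.52e-07). Between the devices Idi1 was higher with the loaded one, 1.15-fold (log2 fold change 0.20, SE 0.036, edgeR adjusted p = 3.17e-05). The table also lists pseudogenes of Idi1, whose sequence may be close to it, so its count is uncertain to that extent. The one with most counts, Idi1-ps1, had 410, 406 and 406 counts in untreated skin, 332, 330 and 352 for the empty device and 332, 364 and 376 for the loaded device.

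Fdps, the enzyme of farnesyl diphosphate, was the lowest of the 8 in counts and was not called in any comparison. The gene (chr3:89000895-89009266, minus strand) stood at 10.8, 12.7 and 10.5 CPM in untreated skin, at 12.4, 12.0 and 11.3 CPM with the empty device and at 11.4, 11.3 and 12.2 CPM with the loaded device, so that all groups overlapped. Its log2 fold changes were 0.07 (SE 0.063), 0.04 (SE 0.064) and -0.03 (SE 0.063) for the empty device against untreated skin, the loaded device against untreated skin and the loaded against the empty device. Of the 8372 bases that the deposited file gives to Fdps, 7512 also belong to the gene model Gm43738 on the same strand, which had 46 to 90 counts. The counting of reads in shared bases is not stated in the labels, so the level of Fdps cannot be read as that of its transcript. Fdps was called higher than in untreated skin with library size alone, at 0.17 for the loaded device (edgeR adjusted p = 0.0269, range over 20 alternatives 0.0269 to 1) and at 0.17 (0.175) for the empty device (edgeR adjusted p = 0.0215, range 0.0215 to 1). The latter was also called without untreated library 2, at 0.16.

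The 2 enzymes that turn squalene into lanosterol differed in opposite directions with the loaded device. Sqle, a rate-limiting step of the later pathway (chr15:59186926-59203041, plus strand), stood at 216, 206 and 207 CPM in untreated skin, at 217, 216 and 211 CPM with the empty device and at 188, 186 and 193 CPM with the loaded device. The loaded device was the lowest and overlapped with neither other group, which overlapped with each other. The log2 fold change was -0.15 against untreated skin (SE 0.032, edgeR adjusted p = 0.000313) and -0.19 against the empty device (SE 0.032, edgeR adjusted p = 1.9e-05). Lss (chr10:76367422-76392972, plus strand) stood at 67.6, 67.5 and 65.9 CPM in untreated skin, at 70.5, 68.4 and 69.9 CPM with the empty device and at 77.1, 74.2 and 75.8 CPM with the loaded device. The loaded device was the highest in every library. Lss was higher with the loaded device by 0.18 against untreated skin (SE 0.031, edgeR adjusted p = 3.24e-05) and by 0.12 against the empty device (SE 0.031, edgeR adjusted p = 0.00207). It shares 11268 of its 25551 bases with 4930483K19Rik on the other strand, which had 12 to 29 counts.

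Some of these calls rest on the scaling. With library size alone Sqle changed by -0.02 with the loaded device against untreated skin (edgeR adjusted p = 0.698, range over 20 alternatives 0.000183 to 1). Under upper-quartile scaling the Lss difference between the devices was 0.07 (edgeR adjusted p = 0.0818, range 0.000283 to 1). The difference between the empty device and untreated skin was 0.04 for Sqle (SE 0.032) and 0.06 (0.055, SE 0.031) for Lss, neither called. It was called higher under 4 alternatives for Sqle (library size alone, upper quartile, the stricter filter and leaving out empty-device library 3, at 0.08 to 0.14). For Lss it was called under these 4, DESeq2 size factors and the DESeq2 Wald test, at 0.09 to 0.16. Without empty-device library 3 the values were 0.09 for each gene.

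Cyp51, the demethylase that takes the first methyl group off lanosterol, fell with both devices. The gene (chr5:4131145-4154746, minus strand) stood at 222, 209 and 215 CPM in untreated skin, at 175, 178 and 172 CPM with the empty device and at 168, 167 and 176 CPM with the loaded device. All untreated libraries lay above all others, and the devices overlapped. Cyp51 changed by -0.30 with the empty device (SE 0.033, edgeR adjusted p = 1.23e-08) and by -0.34 with the loaded device (SE 0.033, edgeR adjusted p = 2.57e-09), each against untreated skin. Between the devices the difference was -0.04 (SE 0.033, edgeR adjusted p = 0.39), and it was called under upper-quartile scaling (-0.09) and with the stricter filter (-0.08). It shares 166 bases with Akap9 on the other strand, which had 11170 to 14199 counts.

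Dhcr7, which makes cholesterol from its direct precursor 7-dehydrocholesterol, was higher with the empty device alone. The gene (chr7:143376882-143402147, plus strand) stood at 109.9, 112 and 109 CPM in untreated skin, at 150.3, 153 and 148 CPM with the empty device and at 109 (109.4), 108 and 112 CPM with the loaded device. All 3 empty-device libraries lay above the other 6, which overlapped. It was 1.36-fold higher with the empty device than in untreated skin (log2 fold change 0.45, SE 0.031, edgeR adjusted p = 8.06e-13) and, between the devices, 1.37-fold lower with the loaded one (log2 fold change -0.45, SE 0.030, edgeR adjusted p = 8.26e-13). Between the loaded device and untreated skin the difference was -0.01 (SE 0.031, edgeR adjusted p = 0.882). That last value turned to 0.13 with library size alone and was then called (edgeR adjusted p = 0.00124, range over 20 alternatives 0.00124 to 1).

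Insig1, the sterol-regulated brake on the pathway, went the other way. The gene (chr5:28276361-28283660, plus strand) stood at 80.1, 81.1 and 79.3 CPM in untreated skin, at 61.3, 67.0 and 61.1 CPM with the empty device and at 94.0, 95.2 and 91.3 CPM with the loaded device. The 3 groups did not overlap, in the order empty device, untreated skin, loaded device. Between the devices Insig1 was higher with the loaded one, 1.48-fold (log2 fold change 0.57, SE 0.035, edgeR adjusted p = 1.4e-13). Against untreated skin it changed by -0.34 with the empty device (SE 0.035, edgeR adjusted p = 2.22e-09) and by 0.22 with the loaded device (SE 0.035, edgeR adjusted p = 5.3e-06). Among all tested genes, 85.9% had a smaller absolute log2 fold change than Insig1 between the devices, and 78.9% a smaller one than Dhcr7.

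**Figure D2:**
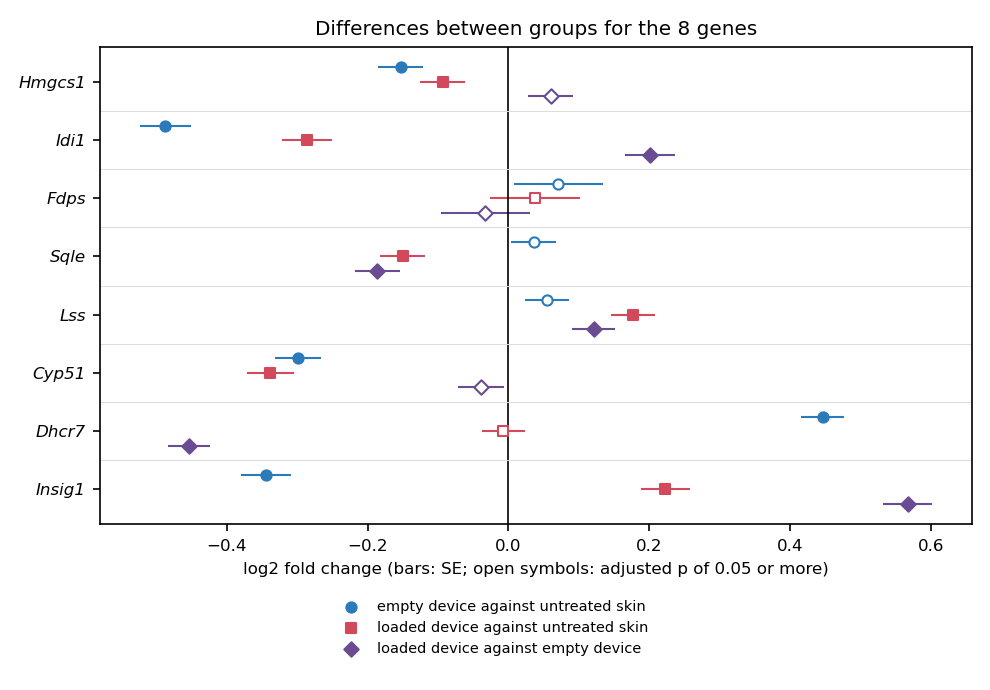
Log2 fold change of the 8 genes (horizontal axis, bars are the SE) in the 3 comparisons, with open symbols where the edgeR adjusted p was 0.05 or more. Dhcr7 and Insig1 lie on opposite sides of 0 for the empty device against untreated skin (0.45 and -0.34) and between the devices (-0.45 and 0.57), and all values for Fdps are open.

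Tested against a 1.2-fold change in place of no change, fewer genes passed. Cyp51 passed, lower, between the loaded device and untreated skin, and Dhcr7 (lower) and Insig1 (higher) passed between the devices. Between the empty device and untreated skin Dhcr7 passed higher and Idi1 and Insig1 lower. The numbers of all genes that passed were then 3095, 3786 and 5335 in the same order, against 11024, 10805 and 12597 in the test of no change.

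Ratios of 2 genes within a library do not depend on how libraries are scaled to each other. The log2 ratio of the Dhcr7 to the Insig1 count was 0.46, 0.46 and 0.46 in untreated skin, 1.29, 1.19 and 1.28 for the empty device and 0.22, 0.19 and 0.29 for the loaded device. The 3 groups did not overlap in this ratio. The log2 ratio of Sqle to Lss was 1.68, 1.61 and 1.65 in untreated skin, 1.62, 1.66 and 1.60 for the empty device and 1.28, 1.33 and 1.35 for the loaded device, which alone stood apart. The log2 ratio of Lss to Idi1 was 0.14, 0.23 and 0.15 in untreated skin, against 0.65 to 0.79 with the empty and 0.62 to 0.68 with the loaded device. These pairs were chosen after their values were seen, so the ratios are a description and carry no test.

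**Figure D3:**
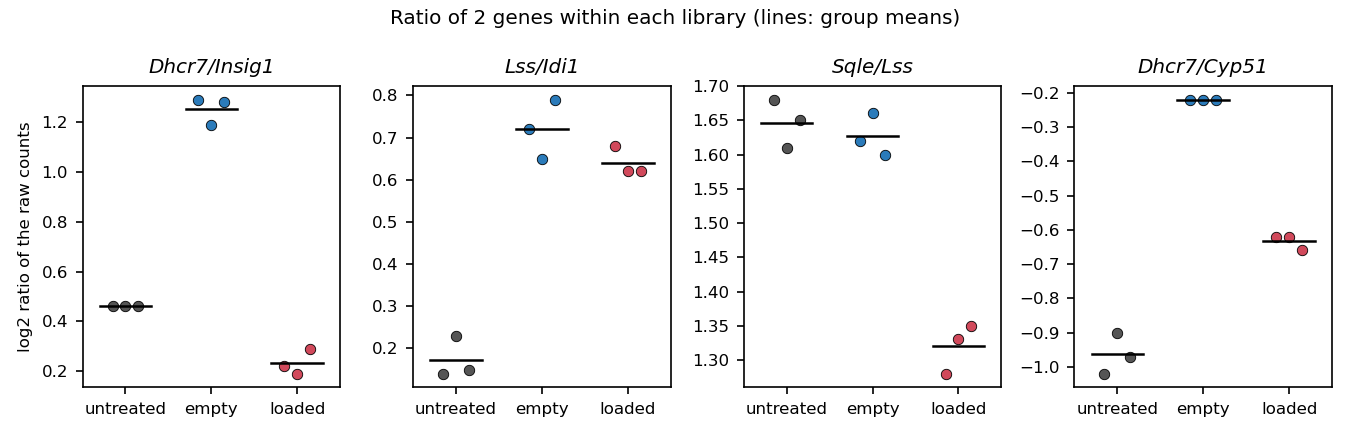
Log2 ratio of the raw counts of 2 genes within each library (points; lines are group means; the vertical axes differ and do not start at 0) for 4 pairs. The Dhcr7 to Insig1 ratio was 1.19 to 1.29 with the empty device and at most 0.46 in the other libraries, and the Sqle to Lss ratio was lower with the loaded device alone.

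The other enzymes of the pathway fell more often than they rose against untreated skin. Of 15 further enzymes, 10 were called lower and 1 higher with the loaded device, where 23.3% of all tested genes were lower and 19.0% higher. With the empty device 10 were lower and 2 higher, where 28.1% of all tested genes were lower and 20.2% higher. Their median log2 fold changes were -0.22 and -0.20, beside -0.01 and -0.02 over all tested genes. With library size alone, 8 were still lower in each comparison, with 4 and 3 higher. Between the devices 7 were lower and 4 higher (8 and 4 under upper-quartile scaling), at a median of -0.07, where 18.5% of all tested genes were lower and 22.9% higher. In all, 11, 12 and 11 of the 15 were called in these 3 comparisons. Among tested genes no lower in mean level than the lowest of the 8, the shares called were 69.9%, 76.3% and 66.4%, so these counts stand near or above them. Shares by direction were not taken at such levels. In the test against a 1.2-fold change 5, 5 and 2 of the 15 passed in the same order.

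Msmo1 held the lowest log2 fold changes of the 15 against untreated skin. It encodes the oxidase that acts on the next methyl groups after Cyp51, and stood at 257, 234 and 230 CPM in untreated skin, at 149, 155 and 147 CPM with the empty device and at 142, 141 and 146 CPM with the loaded device. Like Cyp51, it was high in untreated skin alone. It changed by -0.68 (-0.675) with the empty device (SE 0.037, edgeR adjusted p = 1.82e-14) and by -0.75 with the loaded device (SE 0.038, edgeR adjusted p = 5.37e-15), each against untreated skin. Erg28, a scaffold of the demethylation enzymes, changed by -0.59 and -0.50, and Fdft1, which makes squalene, by -0.43 and -0.40, in the same order. Ebp, the sterol isomerase, changed by -0.27 and -0.56, and Pmvk, a mevalonate pathway kinase, by -0.25 and -0.42 (-0.425). All of these were called by edgeR, and for these 5 enzymes the direction against untreated skin was the same under each of the 20 alternatives.

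Some enzymes had the order of groups of Insig1 or Dhcr7. Lbr, whose product reduces a sterol double bond and also anchors chromatin at the nuclear envelope, had the order of Insig1. It stood at 79.3, 79.0 and 79.2 CPM in untreated skin, at 60.4, 59.4 and 59.0 CPM with the empty device and at 89.7, 88.6 and 87.7 CPM with the loaded device, and changed by 0.57 between the devices (SE 0.030, edgeR adjusted p = 6.47e-15). Mvk, mevalonate kinase, was called higher with the empty device than in untreated skin, as Dhcr7 was, at 0.23 (SE 0.034), and differed by -0.25 (SE 0.034), lower with the loaded one, between the devices. Hsd17b7 was higher with the empty device too (0.14) and lower with the loaded device than with the empty one (-0.35).

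**Figure D4:**
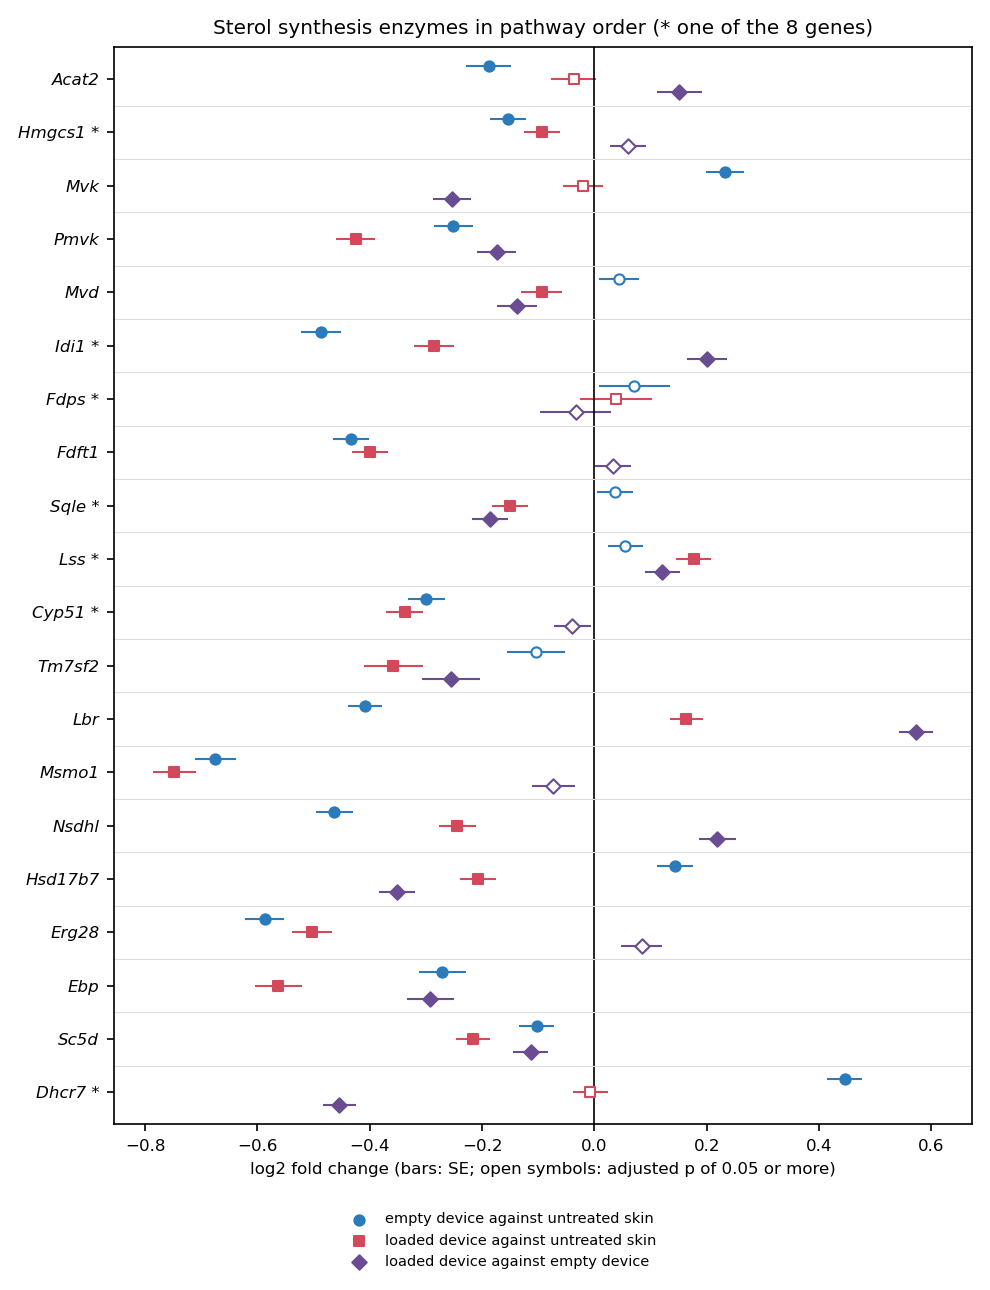
Log2 fold change (horizontal axis, bars are the SE) of 20 sterol synthesis enzymes in pathway order from top to bottom, 7 of the 8 genes among them marked by an asterisk, in the 3 comparisons, with open symbols where the edgeR adjusted p was 0.05 or more. Most filled circles and squares lie left of 0, with Msmo1 lowest at -0.75, while Dhcr7 and Mvk lie right of 0 for the empty device.

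The regulators of the pathway did not share 1 direction. Of 10 tested genes of the SREBP machinery, 5 were called higher and 2 lower with the empty device, 5 higher and 3 lower with the loaded device, each against untreated skin, and 3 higher and 6 lower between the devices. Of all tested genes 20.2% were higher and 28.1% lower, 19.0% and 23.3%, and 22.9% and 18.5% in these comparisons. The 7, 8 and 9 of 10 called stand near or above the 76.3%, 69.9% and 66.4% called among genes no lower than the lowest of the 8. Nothing particular to the list is read from them. Scap, like Dhcr7, was highest with the empty device. It stood at 109, 116 and 113 CPM in untreated skin, at 150, 146 and 145 CPM with the empty device and at 115, 114 and 112 CPM with the loaded device, with a log2 fold change of 0.39 for the empty device against untreated skin (SE 0.032, edgeR adjusted p = 3.57e-11) and -0.37 between the devices (SE 0.032, edgeR adjusted p = 1.21e-10). Scaled by library size alone, it was also called higher with the loaded device against untreated skin, at 0.15 (edgeR adjusted p = 0.000454, range over 20 alternatives 0.000454 to 1). Srebf2, named here for its role, was higher than in untreated skin with both devices (0.27 for the empty one and 0.16 for the loaded one, SE 0.032 each). Insig2, the second brake on Scap and also named for its role, was lower than in untreated skin with both (-0.25 and -0.19, SE 0.031 each). With library size alone the Insig2 change with the loaded device was -0.05 and not called.

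Genes of cholesterol uptake and transport were called in both directions. Of 12, 5 were higher and 3 lower with the empty device, 6 higher and 3 lower with the loaded device, and 6 higher and 4 lower between the devices, so that 8, 9 and 10 of 12 were called, near or above the same shares. Vldlr, a receptor for lipoproteins, was higher with the empty device than in untreated skin (log2 fold change 0.48, SE 0.050). Stard4, a carrier of cholesterol between membranes, was lower with the loaded device than with the empty device (-0.36, SE 0.036), and Lrp8, another receptor of that family, was higher (0.62, SE 0.058). In fatty acid synthesis, which SREBP-1 drives, 7 of 14 genes were higher and 3 lower between the devices, 7 higher and 5 lower with the empty device and 6 higher and 1 lower with the loaded device, each of these against untreated skin, beside the shares over all tested genes given for the SREBP machinery. The desaturase gene Fads2, the one with the smallest p there, stood at 45, 47.3 and 49.3 CPM in untreated skin, at 31.7, 32.8 and 30.2 CPM with the empty device and at 60.1, 58.2 and 54.9 CPM with the loaded device, the same order of groups as Insig1.

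Markers of several cell types differed between the groups, often with members of 1 list going both ways. Of all tested genes, 20.2% were higher and 28.1% lower with the empty device than in untreated skin. With the loaded device 19.0% were higher and 23.3% lower, and between the devices 22.9% and 18.5%. Among genes no lower in mean level than the lowest of the 8, 76.3%, 69.9% and 66.4% were called. These shares stand beside the marker counts here and below, and some of the counts are near them. The summed level of 12 keratinocyte markers was 44000 to 45300 CPM in untreated skin, 52200 to 53500 CPM with the empty device and 31600 to 33700 CPM with the loaded device. Of the 12, 5 were higher and 5 lower with the empty device than in untreated skin (median log2 fold change -0.04), 9 were lower and none higher with the loaded device against untreated skin, and 8 were lower and none higher with the loaded device between the devices. The abundant keratin Krt10 of the upper layers, chosen after its values were seen, was higher with the empty device (0.49) and Krt14 of the basal layer, chosen likewise, lower (-0.83), each against untreated skin.

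The sum of 12 skeletal muscle markers was also highest with the empty device, at 10200 to 10500, 12900 to 15100 and 9310 to 9870 CPM for untreated skin, the empty device and the loaded device, the order used below too. Of these 12, 9 were higher and 1 lower with the empty device than in untreated skin. Between the devices 1 was higher and 10 lower with the loaded one. The sum of 12 sebocyte markers was 618 to 630, 663 to 683 and 571 to 573 CPM, with 3 higher and 5 lower with the empty device than in untreated skin and 5 higher and 7 lower between the devices. Acsbg1, chosen after its values were seen, made up much of that sum, with mean levels of 277.7, 407.9 and 262.2 CPM.

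Adipocyte, hair matrix, melanocyte and cell cycle markers had their lowest sums with the empty device. Of the 8 genes, Hmgcs1, Idi1 and Insig1 also had their lowest levels there. The sum of 11 adipocyte markers was 961 to 1040, 636 to 686 and 1110 to 1160 CPM. With the empty device 7 of these 11 were lower and 4 higher than in untreated skin, and between the devices 9 were higher and 1 lower with the loaded one. The sum of 12 hair matrix markers was 17400 to 17600, 11400 to 13000 and 19800 to 21000 CPM, with 11 lower and 1 higher with the empty device than in untreated skin. That of 10 melanocyte markers was 574 to 599, 303 to 336 and 592 to 649 CPM, and that of 12 cell cycle genes was 841 to 889, 479 to 503 and 766 to 793 CPM. The sum of 11 macrophage markers was lower with both devices, at 335 to 352, 285 to 293 and 227 to 244 CPM. Against untreated skin, 9 of these 11 were lower and 1 higher with the empty device, and 10 lower and 1 higher with the loaded device. Between the devices 7 were lower and 1 higher with the loaded one. No tested marker of these lists was at 0 in any group. Mitochondrially encoded transcripts made up 4.56% to 4.72% of counts in untreated skin, 3.31% to 3.42% with the empty device and 3.78% to 3.90% with the loaded device. The part of these shifts in the values of the 8 genes was not tested.

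The mean profile of the 8 genes, centred log2 CPM averaged over them, varied little, with an SD of 0.04 over the 9 libraries. It was highest in untreated skin, at 0.023 to 0.06, against -0.07 to -0.012 with the empty device and -0.025 to 0.013 with the loaded device. Untreated skin thus overlapped with neither device under TMM scaling, the only scaling used for the profile. The order is not firm. With library size alone the median log2 fold change of the 8 against untreated skin was 0.045 for the empty and 0.083 for the loaded device. Under upper-quartile scaling it was 0.012 and -0.031. The 5 genes closest to the mean profile, by the root mean square difference of centred log2 CPM over 9 libraries among 14264 genes, were Vcp, Rbm45, Sdc1, Prpf6 and Cyfip1, at 0.015 to 0.020. Taken singly against the 22 other genes of the 2 lists, Idi1 was closest to Nsdhl (0.027), Insig1 to Lbr (0.050), Cyp51 to Fdft1 (0.058) and Dhcr7 to Mvk (0.103), while Dhcr7 was the farthest of the 22 from Idi1, Cyp51 and Insig1.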

How the data were processed

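The deposited values are raw counts per gene, not normalized by the authors, and each of the 9 libraries has its own column. The submitters' processing notes name HISAT2, featureCounts and mm39, while versions, annotation, strand setting and the treatment of shared bases were not given in the sources used here. The deposited length of 99.9% of genes equals their whole span, so counts may include reads in introns.

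Genes were kept with filterByExpr (minimum count 10, minimum total 15), scaled with TMM factors and tested with edgeR 4.0.16 in R 4.3.3 by the robust quasi-likelihood test, with 1 coefficient per group and all 9 libraries in the fit. The steps were tested on simulated counts. SEs come from the F statistic. Alternatives used other scalings and filters, DESeq2 1.42.0, limma-voom (limma 3.58.1), a 1.2-fold minimum, only the 2 groups compared, a replicate block and each library left out. The 8 genes and the lists were chosen with earlier results of these data known. Up to 4 genes per further list were named by the smallest p between the devices, with any sterol enzyme; Srebf2 and Insig2 were added for their role after values were seen. Some genes of the lists are counted but not reported here by name. No sequence was read by coordinates.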

Additional observations from a re-analysis of the deposited data

How the results depend on the processing

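Over 20 alternatives each, the 24 values of the 8 genes (480 refits) kept direction and call in 434, lost the call in 18, gained one in 16 and turned direction in 12. For the loaded device against untreated skin, Dhcr7 was 0.007 with DESeq2 size factors and with the DESeq2 Wald test, 0.126 with library size alone, 0.012 with upper quartile, 0.001 with no filter, 0.002 with the stricter filter, 0.004 with only the 2 groups compared and -0.019 to 0.006 on leaving out each library. Fdps was -0.016 to 0.127 on leaving out each library, and Scap -0.007 to 0.036 (turned without untreated library 1). With library size alone Hmgcs1 was 0.04, Acat2 0.096, Mvk 0.112, Mvd 0.039 and Vldlr 0.083. For the empty device against untreated skin, library size alone gave 0 for Tm7sf2 and 0.001 for Sc5d. Fdft1 between the devices was -0.017 with upper quartile and -0.005 with the stricter filter.

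The median of the 8 moved by more than the spread between libraries (0.016). For the loaded device against untreated skin it was 0.083 with library size alone and -0.031 with upper quartile. Between the devices it was -0.004 with DESeq2 size factors and the Wald test, 0.042 with library size alone, -0.038 with upper quartile and -0.025 with the stricter filter. For the empty device against untreated skin it was -0.028 with DESeq2 size factors and the Wald test, 0.045 with library size alone, 0.012 with upper quartile, -0.011 with the stricter filter and -0.027 with only the 2 groups compared. Leaving out each library gave -0.059 to -0.037, -0.025 to 0.027 and -0.076 to -0.01 in the same order. In the test against a 1.2-fold change, 1, 2 and 3 of the 8, 5, 2 and 5 of the 15 other enzymes and 3095, 3786 and 5335 of all genes passed.

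The labels give groups the same replicate numbers, but same-numbered libraries did not deviate together (correlations of -0.099 to 0.097 over 9 pairs, against -0.093 to 0.088 over 18 other pairs). With the replicate number as a block 6, 5 and 5 of the 8 genes were called, as without it, and it changed no call among the 8. Values at the level of Fdps carry an SE of about 0.063.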

Other observations

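Branches that leave the pathway were looked at with the same tests. Of 10 genes that pass isoprenoids to other products (ubiquinone, dolichol and the prenylation of proteins), 4 were higher with the loaded device and none lower when the devices were compared, 3 were higher and 4 lower with the empty device than in untreated skin, and 2 were higher and 4 lower with the loaded device against untreated skin. Of 8 tested genes of sterol esters, sulfates and oxysterols, 1 was higher and 5 lower between the devices, 2 were higher and 1 lower with the empty device and 2 higher and 3 lower with the loaded device, each of these against untreated skin. Over all tested genes 22.9% were higher and 18.5% lower between the devices, 20.2% and 28.1% for the empty device and 19.0% and 23.3% for the loaded device. Sult2b1, which makes cholesterol sulfate in the upper epidermis, was highest with the empty device, as Dhcr7 was. It stood at 78.9, 78.8 and 78.4 CPM in untreated skin. The values were 108, 110 and 103 CPM with the empty device and 80.4, 79.3 and 82.5 CPM with the loaded device. Scaled by library size alone, it was also called higher with the loaded device against untreated skin, at 0.17 (edgeR adjusted p = 6.12e-05, range over 20 alternatives 6.12e-05 to 1). Soat1, which esterifies cholesterol, had the order of Insig1, and between the devices it was higher with the loaded one, 1.36-fold (log2 fold change 0.44, SE 0.037, edgeR adjusted p = 9.31e-11).

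Outside the pathway, the genes closest to Dhcr7 over the 9 libraries were Gltp, Desi1 and Prrc1 (root mean square differences of 0.020, 0.021 and 0.021 in centred log2 CPM, among 14271 genes), and those closest to Insig1 were Igfbp4, Lpgat1 and Slc9a2 (0.024, 0.024 and 0.026). This search by single gene was added after the values were seen and carries no test.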
